A study of Mus musculus with 10 samples.

Results

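The genes described here are 10 members of the matrix metalloproteinase (MMP) system, namely Mmp2, Mmp3, Mmp9, Mmp10, Mmp12, Mmp13, Mmp14, Timp1, Timp2 and Timp3, taken by gene name from the 36009 genes of the deposited table. Their transcripts were sequenced as polyA RNA from 10 CT26 tumors grown under the skin of female BALB/c mice, CT26 being a mouse colorectal carcinoma line (wild type in the labels). The tissue sequenced was resected before a hydrogel loaded with poly(I:C), a synthetic double-stranded RNA, was placed on the tumor that remained, so every tumor was untreated when sampled. The mice were afterwards sorted into 6 responders, whose tumors regressed completely, and 4 non-responders, whose tumors grew without delay. The labels give no age per mouse, all tumors derive from 1 cell line, and the resected piece holds tumor and host cells together. Numbers of tumors follow accession order and pair nothing across groups. Values with ± are means and SD over the tumors of a group.

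MMPs are zinc-dependent endopeptidases that cut collagens, laminins, proteoglycans and other matrix proteins. Most are secreted as inactive proenzymes whose propeptide must be removed, and tissue inhibitors of metalloproteinases (TIMPs) bind and block the active enzymes. In tumors they are made by cancer cells, fibroblasts, macrophages and neutrophils, and they act in invasion, vessel growth and leukocyte movement. RNA levels say nothing of how much proenzyme is activated.

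Libraries held between 23374649 and 38042544 estimated counts, and all 10 members passed the low-count filter. Counts of the members ran from between 65.2 and 165.3 per tumor for Mmp10 to at least 17127 for Timp2, so counting error was small for every member but Mmp10. Of the 8 colon epithelium markers, Epcam, Krt8, Krt18 and Vil1 were too low to test, while Krt20 was at 29.1 ± 9.80 CPM (counts scaled by library size) in responders and 52.9 ± 18.5 CPM in non-responders. Cdh1, Krt19 and Cdx2 could also be tested. The carcinoma label is that of the cell line and was not tested with these markers. Non-responder 2 stood apart in skin keratinocyte markers, with 82.7 counts of Krt5, 58 of Krt14 and 24.0 of Dsg3 where the other tumors had 0 to 2, and a sum over the list of 9.40 CPM against 2.69 to 3.92 CPM. That tumor had the lowest Mmp2 and the highest Mmp3 and Mmp13 of all. Without it the log2 fold changes were 0.17 for Mmp2, -0.31 for Mmp3 and 0.0819 for Mmp13 (edgeR adjusted p = 0.527, 0.112 and 0.854), against 0.31, -0.40 and -0.12 with it. The part of skin in these values was not tested.

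Of the 10 members, 4 lie in the MMP gene cluster of chromosome 9 in GRCm38. Mmp13 (7272514 to 7283331), Mmp12 (7344381 to 7369499), Mmp3 (7445822 to 7455975) and Mmp10 (7502352 to 7510240) lie there in this order on the plus strand, with other genes of the cluster between some of them. MMP promoters of this cluster are known for binding sites of AP-1, the Fos and Jun transcription factor. The letters TGANTCA, which read as the same pattern on both strands, were searched in RefSeq windows of 300 bases around each start (GRCm38.p6). They were found for all 4 of these members and for none of the other 4 members with an entry (Mmp14, Timp1, Timp2 and Timp3), against 7.81% of the 32851 promoters in the table. A gene was counted if any of its entries matched, whereas the 7.81% is per promoter. Mmp12 had 2 entries, and only that of its second start held the letters. Mmp2 and Mmp9 had no entry. Over the whole cluster, 8 of 10 genes held the pattern, Mmp8 and Mmp27 being the exceptions. The 100 bases before each start are shown because these 4 genes share the pattern and yet differed in how they varied between tumors, as the values below show. Capitals mark the match, and the sequences are chr9:7272414-7272513, chr9:7347274-7347373 (the second of the annotated starts of Mmp12), chr9:7445722-7445821 and chr9:7502242-7502341.
Mmp13: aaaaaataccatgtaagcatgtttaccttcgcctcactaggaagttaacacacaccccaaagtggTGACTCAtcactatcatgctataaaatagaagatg
Mmp12: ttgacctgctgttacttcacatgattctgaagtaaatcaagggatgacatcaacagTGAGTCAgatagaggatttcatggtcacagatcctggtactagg
Mmp3: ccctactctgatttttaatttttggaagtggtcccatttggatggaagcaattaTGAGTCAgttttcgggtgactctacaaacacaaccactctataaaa
Mmp10: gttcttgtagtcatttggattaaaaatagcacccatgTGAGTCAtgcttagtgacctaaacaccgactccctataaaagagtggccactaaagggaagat

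The match began at -35, -44, -46 and -63 from the start in Mmp13, Mmp12, Mmp3 and Mmp10. Mmp3, Mmp10 and Mmp12 carried TGAGTCA, and TGACTCA of Mmp13 is the same letters read on the other strand. A match is a description of the letters and not evidence of binding.

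Levels of different genes were compared as CPM per kilobase of the longest annotated coding transcript. On this scale the inhibitors Timp2 (median 217.4 over 10 tumors) and Timp1 (194.2) were the most abundant members, followed by Mmp3 (160.1), Mmp13 (108.3), Mmp14 (83.6), Mmp9 (63.4), Timp3 (35.6), Mmp12 (22.2), Mmp2 (17.0) and Mmp10 (2.46). Ranges over tumors overlapped between every pair of neighbors in this order except Mmp2 and Mmp10. Within tumors the order was steadier, with each gene above its next neighbor in 8 to 10 of the 10 tumors. TIMPs made up 50.5% ± 2.67 of the summed level of the 10 members in the 6 responders and 48.0% ± 4.75 in the 4 non-responders, and the groups overlapped, at 46.8% to 53.7% against 41.7% to 53.2%.

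**Figure D1:**
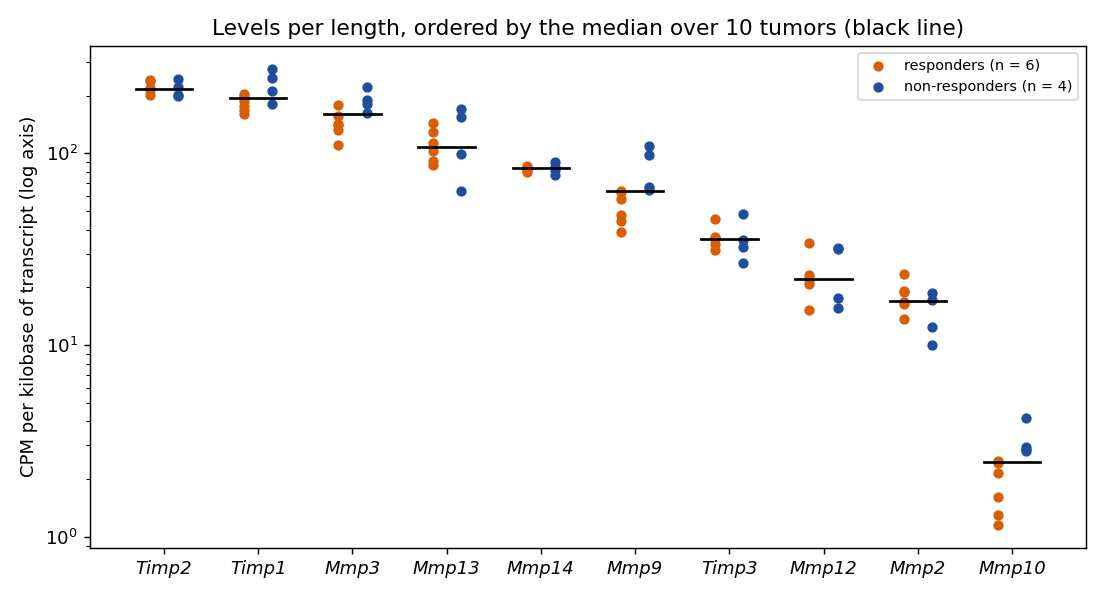
Level of each member in CPM per kilobase of transcript (log axis) in responders (orange, n = 6) and non-responders (blue, n = 4), with a black line at the median of the 10 tumors. Timp2 and Timp1 sit at the top at medians of 217.4 and 194.2 and Mmp10 far below the rest at 2.46.

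Comparing the groups asks what in an untreated tumor goes with its later response. Mmp9, which encodes gelatinase B, was the only member called by edgeR, and it was lower in responders, by 0.68 on the log2 scale. The number called depended on the tool, with 0 members by limma-voom, where Mmp9 had an adjusted p of 0.0515, and 4 by DESeq2 (Mmp3, Mmp9, Mmp10 and Timp1). The stromelysin genes Mmp3 and Mmp10 and the inhibitor Timp1 had lower estimates in responders without passing the threshold. Mmp2, Mmp12, Mmp13, Mmp14, Timp2 and Timp3 overlapped between groups and did not reach an unadjusted p under 0.05. By edgeR's quasi-likelihood test with Benjamini-Hochberg adjustment over 16041 genes, 1 of 10 members had an adjusted p under 0.05, where 8.06% of all genes tested did (3.35% as lower and 4.71% as higher in responders), so the share of members is near the background. At an unadjusted p under 0.05 the test took 4 of 10 members, all lower in responders. Over all genes tested it took 29.1% in either direction and 13.5% as lower in responders. The median log2 fold change was -0.10 over the members and -0.01 over all genes tested. The members and the lists below were chosen with results of these tumors known, so these counts are descriptions.

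**Figure D2:**
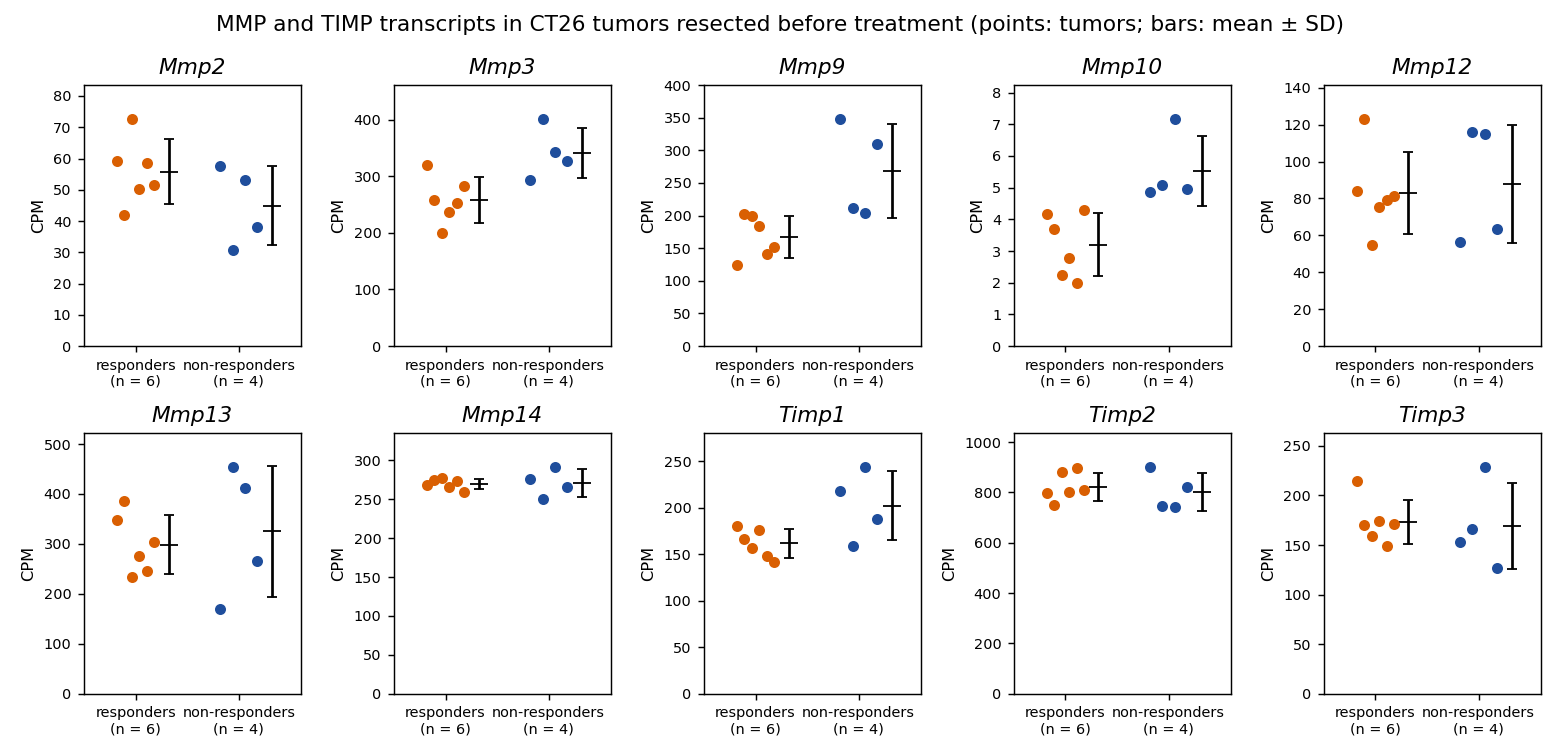
CPM of the 10 members in each responder (orange, n = 6) and non-responder (blue, n = 4), with the mean and SD of each group as a black bar; every axis starts at 0. Mmp9 and Mmp10 do not overlap between groups, and Mmp14 varies least, its highest tumor being 1.17 times its lowest.

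The gelatinases Mmp9 and Mmp2 cut denatured collagen and the type IV collagen of basement membranes. Mmp9 (ENSMUSG00000017737, chromosome 2, 164940780 to 164955850) was at 124.1, 167.7 and 203 CPM in the lowest, median and highest responder. In non-responders 1 to 4 it was at 347.9, 211.1, 203.8 and 309.8 CPM. Every responder lay below every non-responder, but the gap was narrow, since responder 2 at 203 CPM nearly met non-responder 3 at 203.8 CPM, while non-responders 1 and 4 stood well above. The means were 167.3 ± 32.7 CPM and 268.2 ± 71.9 CPM, a log2 fold change of -0.68 (edgeR SE 0.18 and adjusted p = 0.0443). The call changed with the tumors included. The estimate stayed negative in all 10 fits that left out a tumor, from -0.79 to -0.53, but the edgeR adjusted p ran from 0.0319 to 0.119 and passed only without responder 4 or without non-responder 2. The call was lost without responder 1, 2, 3, 5 or 6 and without non-responder 1, 3 or 4. Without responder 2, responder 3 or non-responder 3 the estimate was larger in size, at -0.74, -0.74 and -0.79. The unadjusted edgeR p was smaller there, at 0.00236, 0.00265 and 0.00132, against 0.0028 with all tumors. The adjusted p also depends on all genes tested, of which 244, 17 and 366 were called in these fits against 1293.

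Mmp2 (ENSMUSG00000031740, chromosome 8, 92827291 to 92853420), the other gelatinase, was at 42.0, 55.1 and 72.6 CPM in the lowest, median and highest responder and at 57.5, 30.7, 53.2 and 38.1 CPM in non-responders 1 to 4. The groups overlapped, with non-responders 2 and 4 below every responder and non-responders 1 and 3 among them. Its log2 fold change was 0.31 (edgeR SE 0.18 and adjusted p = 0.282), opposite in sign to that of Mmp9. Non-responders 1 and 4, both high in Mmp9, lay apart for Mmp2, at 57.5 and 38.1 CPM.

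Neutrophils and macrophages are known sources of MMP9, and their markers were read beside it. The 8 neutrophil markers, led by Csf3r and S100a9, summed to 75.3 to 154.7 CPM in responders and 59.7 to 126.0 CPM in non-responders. Of the 5 that could be tested, 0 were called by edgeR, DESeq2 or limma-voom, and 1 (Csf3r) had an unadjusted p under 0.05 by edgeR. Estimates were higher in responders for Csf3r and lower for the other 4. Non-responders 1 and 4, with the highest Mmp9, had neutrophil sums of 75.4 and 59.7 CPM, among the lowest values. Granule genes such as Camp, Ltf and Ngp, which mark immature neutrophils, were too low to test. Of the 9 macrophage markers, 8 had higher estimates in responders and 1 (Mrc1, at -0.13) a lower one. They summed to 2985 to 4446 CPM in responders and 2078 to 2819 CPM in non-responders without overlap, and 6 of 9 were called higher in responders, C1qa and C1qc being the most abundant. The 8 fibroblast markers, led by Pdgfra and Col6a3, summed to 1056 to 1165 CPM against 1185 to 1517 CPM without overlap, and 3 of 8 (Pdgfrb, Col6a3 and Fap) were called lower in responders. Estimates of this list were lower for 5 genes, with Pdgfra at only -0.005, and higher for 3 (Thy1, Lum and Dpt). In bulk tumors, fewer cells of a type and less RNA per cell cannot be told apart, and the part of these cells in the Mmp9 difference was not tested.

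**Figure D3:**
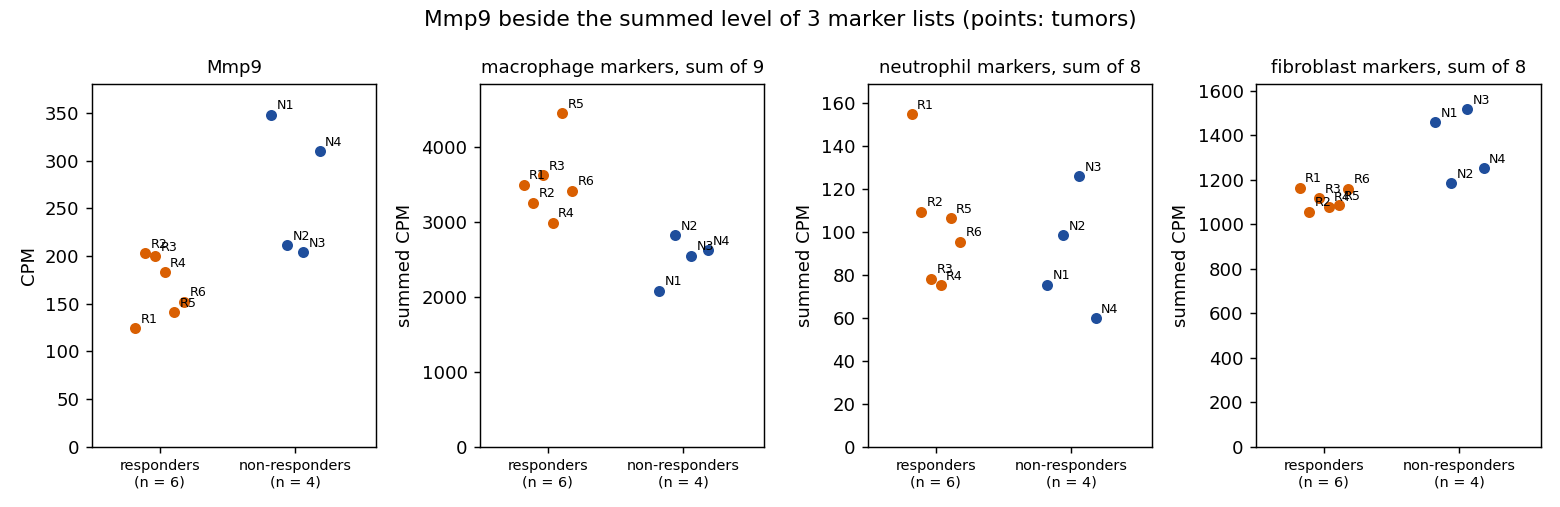
Mmp9 in CPM (left) and the summed CPM of the macrophage, neutrophil and fibroblast marker lists in each responder (orange, n = 6) and non-responder (blue, n = 4). Non-responders 1 and 4, at 347.9 and 309.8 CPM of Mmp9, have neutrophil sums of 75.4 and 59.7 CPM, while fibroblast sums are higher in every non-responder.

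The stromelysins Mmp3 and Mmp10 degrade proteoglycans, laminin and fibronectin and can activate other proMMPs. Mmp3 (ENSMUSG00000043613) was at 199.3, 255.2 and 320.5 CPM in the lowest, median and highest responder and at 294.3, 401.3, 342.5 and 327.9 CPM in non-responders 1 to 4. Only responder 1 reached into the range of the non-responders. The log2 fold change was -0.40 (edgeR SE 0.12 and adjusted p = 0.0599).

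Mmp10 (ENSMUSG00000047562), the least abundant member, was at 1.99, 3.23 and 4.29 CPM in the lowest, median and highest responder and at 4.85, 5.08, 7.17 and 4.96 CPM in non-responders 1 to 4. All responders lay below all non-responders, with non-responder 3 far above the rest. Its log2 fold change of -0.78 was the largest among the members, but with an SE of 0.23 it missed the threshold (edgeR adjusted p = 0.0558). Mmp9 and Mmp10 were thus 2 of 10 members without overlap between groups, which held for 10.4% of all genes tested (4.55% with all responders lower). With libraries thinned to equal depth, Mmp10 passed (edgeR adjusted p = 0.0439) and the narrow gap of Mmp9 closed, although Mmp9 was still called (edgeR adjusted p = 0.0439).

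The stromelysin pair also shares sequence. Of the distinct 31-base words in the annotated transcripts, the word length at which Kallisto matches reads by default, 202 were held by both genes, 11.9% of those of Mmp10. Neither gene's estimated count was whole in any tumor, whereas their sum was whole within 0.05 in 10 of 10 tumors, so reads matching both were split between them. Mmp10 took only 0.782% to 2.05% of the sum, and its counts are uncertain for that reason. With both rows summed before the fit, edgeR gave -0.41 on the log2 scale (adjusted p = 0.0582), close to that of Mmp3 alone.

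Mmp13 (ENSMUSG00000050578) encodes collagenase-3, which cuts fibrillar collagen, and Mmp12 (ENSMUSG00000049723) encodes macrophage elastase. Mmp13 was at 233, 289.5 and 385.5 CPM in the lowest, median and highest responder and at 170.4, 454.5, 411.5 and 265.2 CPM in non-responders 1 to 4. Non-responders held both the lowest and the 2 highest tumors. The log2 fold change was -0.12 (edgeR SE 0.24 and adjusted p = 0.775), and its sign changed without non-responder 2 or 3.

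Mmp12 was at 54.9, 80.1 and 123.1 CPM in the lowest, median and highest responder and at 56.4, 116.0, 114.8 and 63.7 CPM in non-responders 1 to 4. Here too non-responders 2 and 3 were high and 1 and 4 low, the reverse of their order for Mmp9. The log2 fold change was -0.08 (edgeR SE 0.24 and adjusted p = 0.862), turning positive without responder 3 or without non-responder 2 or 3. The macrophage marker Adgre1 was called higher in responders, by 0.87 on the log2 scale (edgeR SE 0.19 and adjusted p = 0.031), while this macrophage protease was not called. The ends of Mmp12 and of Mmp1b on the opposite strand overlap, and Mmp12 shared 6.59% of its words with other genes, most of all with Mmp1b, but Mmp1b was at under 1 CPM.

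Mmp14 (ENSMUSG00000000957, chromosome 14, 54431612 to 54445364) encodes the membrane-bound MT1-MMP, which activates proMMP2 at the cell surface. It was the steadiest member, at 258.9, 270.6 and 277.2 CPM in the lowest, median and highest responder and at 275.8, 250.1, 291.7 and 265.2 CPM in non-responders 1 to 4. Its highest tumor was 1.17 times its lowest, against 2.80 times for Mmp9 and 3.60 times for Mmp10. The log2 fold change was -0.01 (edgeR SE 0.05 and adjusted p = 0.944), and its sign changed in 4 of the fits that left out a tumor. An SE of 0.05 makes this the narrowest estimate among the members.

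Among the inhibitors, Timp1 binds proMMP9 as well as most active MMPs. Timp1 (ENSMUSG00000001131, chromosome X, 20870166 to 20874735) was at 141.3, 161.7 and 180.7 CPM in the lowest, median and highest responder and at 218.2, 159.2, 244.1 and 187.7 CPM in non-responders 1 to 4. Non-responders 1, 3 and 4 were above every responder and non-responder 2 fell among them. The log2 fold change was -0.32 (edgeR SE 0.11 and adjusted p = 0.0844), and without non-responder 2 it was -0.42 and passed (edgeR adjusted p = 0.028). The estimates of the enzyme Mmp9 and of Timp1 thus had the same sign.

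Timp2 (ENSMUSG00000017466, chromosome 11, 118301069 to 118355740) blocks MMP2 but also bridges proMMP2 to MT1-MMP. It was at 751.1, 806.4 and 898 CPM in the lowest, median and highest responder and at 902.2, 744.3, 742.6 and 823.1 CPM in non-responders 1 to 4. The groups overlapped almost completely (log2 change 0.04 by edgeR, SE 0.07 and adjusted p = 0.777). Without non-responder 3 its estimate was -0.00016.

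Timp3 (ENSMUSG00000020044, chromosome 10, 86300372 to 86349506) stays bound to the matrix and also inhibits ADAM17. It was at 148.6, 170.8 and 214.3 CPM in the lowest, median and highest responder and at 153.4, 166.5, 228.9 and 126.9 CPM in non-responders 1 to 4. Responders lay inside the range of the non-responders, with a log2 fold change of 0.03 (edgeR SE 0.15 and adjusted p = 0.902) that turned negative without responder 1 or without non-responder 1 or 4. Timp3 shared 21.9% of its transcript words with other genes, mostly Syn3. Timp1 and Timp3 lie inside the spans of Syn1 and Syn3 on the opposite strand, and Timp2 overlaps Cep295nl on its own strand. Syn1, Syn3 and Cep295nl were at 1.62 ± 0.378, 0.581 ± 0.161 and 2.40 ± 0.331 CPM in the 6 responders, far below the TIMPs.

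**Figure D4:**
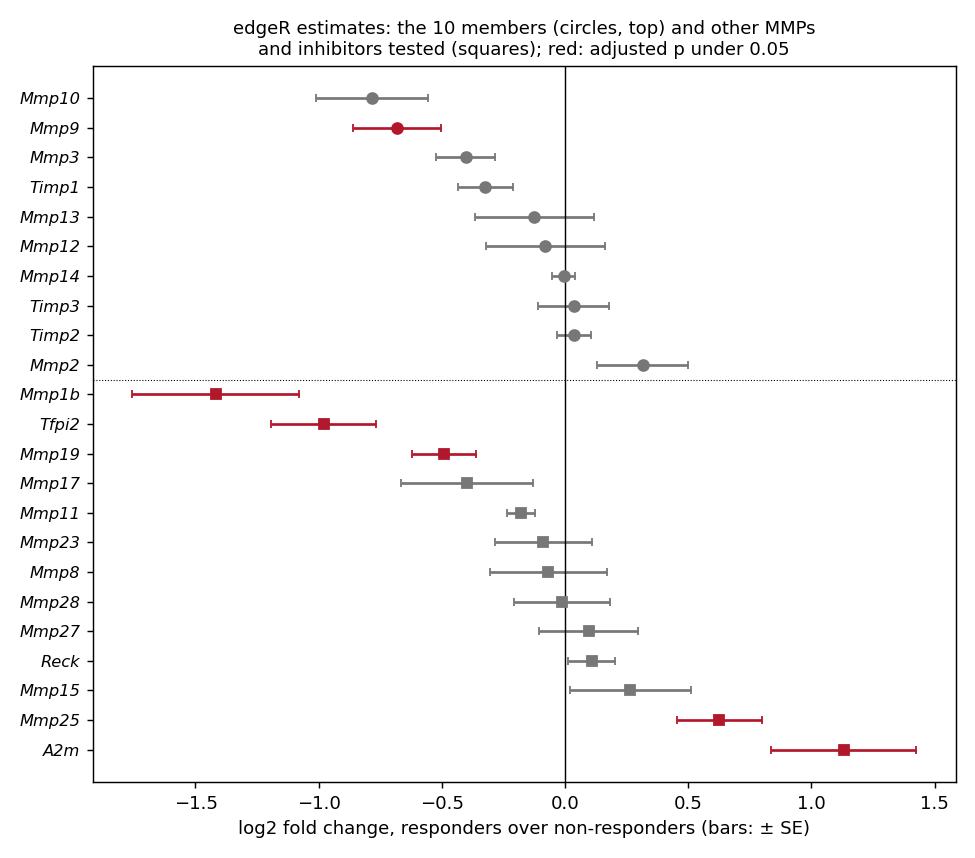
edgeR log2 fold change of responders over non-responders with its SE for the 10 members (circles, above the dotted line) and for the other MMPs and inhibitors that could be tested (squares); red marks an adjusted p under 0.05. Mmp9 at -0.68 is the only red circle, and Mmp1b, Tfpi2 and Mmp19 below and Mmp25 and A2m above 0 are the red squares.

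Of 16 other MMP genes, 10 could be tested, of which edgeR called 2 lower and 1 higher in responders. DESeq2 called 3 of these 10 and limma-voom 1. Over all genes tested, edgeR called 8.06% in either direction. Mmp19, a secreted MMP with broad substrates, was at 94.5, 113 and 141.4 CPM in the lowest, median and highest responder and at 183.3, 141.9, 195.3 and 127.7 CPM in non-responders 1 to 4 (log2 change -0.49 by edgeR, SE 0.13 and adjusted p = 0.0446). Mmp25, a membrane-anchored MMP of leukocytes, was higher in every responder, at 23.3 ± 4.06 CPM against 15.1 ± 3.68 CPM, with a log2 fold change of 0.63 (edgeR SE 0.17 and adjusted p = 0.0492). Mmp1b, an MMP gene with the close paralog Mmp1a, was at 0.213 ± 0.114 CPM against 0.574 ± 0.145 CPM (log2 change -1.42 by edgeR, SE 0.34 and adjusted p = 0.0364), so its call rests on few reads. The others tested, from Mmp17 at -0.40 to Mmp15 at 0.27, were not called.

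Along the chromosome 9 cluster, in genomic order, the estimates were -0.12 for Mmp13, -0.08 for Mmp12, -1.42 for Mmp1b, -0.40 for Mmp3, -0.78 for Mmp10, -0.07 for Mmp8 and 0.10 for Mmp27, on the log2 scale. Mmp1a, Mmp20 and Mmp7 were too low to test. Of the transcription factors and cytokines known to induce MMP genes, 18 were tested. Etv4, an ETS factor, was the only one called, at 92.8 ± 11.8 CPM in the 6 responders and 121.7 ± 10.9 CPM in the 4 non-responders, a log2 fold change of -0.39 (edgeR SE 0.09 and adjusted p = 0.0366). Estimates of this list were higher for 9 genes and lower for 9. Of the 6 AP-1 genes in the list none was called: Jun, Junb, Fos and Fosb had positive estimates of 0.19, 0.47, 0.85 and 0.27 (edgeR adjusted p = 0.475, 0.29, 0.0522 and 0.777), and Fosl1 and Fosl2 negative ones of -0.02 and -0.11 (edgeR adjusted p = 0.939 and 0.574).

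Of 5 further metalloproteinase or matrix protease inhibitors, 3 could be tested. A2m, the plasma protease trap alpha-2-macroglobulin, was higher in every responder at 1.97 ± 0.487 CPM against 0.909 ± 0.401 CPM (log2 change 1.13 by edgeR, SE 0.29 and adjusted p = 0.0432). Tfpi2, a Kunitz-type inhibitor of serine proteases, was lower in every responder at 1.599 ± 0.417 CPM against 3.15 ± 0.727 CPM (log2 change -0.98 by edgeR, SE 0.21 and adjusted p = 0.031). In the plasminogen system, whose plasmin can activate proMMPs, all 6 genes tested had lower estimates in responders and 1 was called. That gene, Serpine2, which encodes an inhibitor of thrombin and plasminogen activators, was at 5.87 ± 1.36 CPM in the 6 responders and 14.97 ± 4.63 CPM in the 4 non-responders, with a log2 fold change of -1.35 (edgeR SE 0.22 and adjusted p = 0.0207). Plg, which encodes plasminogen itself, had a count of 0 in every tumor.

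Proprotein convertases and docking proteins, which activate or anchor MMPs, gave 0 calls by edgeR among 6 genes, with 0 at an unadjusted p under 0.05 and 0 by DESeq2 or limma-voom. The smallest p-values of that list belonged to Pcsk6 (log2 fold change 0.48, edgeR adjusted p = 0.30) and Pcsk7 (-0.05, edgeR adjusted p = 0.462). Of 19 ADAM and ADAMTS proteases, relatives of the MMPs, 2 were called higher and 1 lower in responders. Adam17, which sheds TNF and is a target of Timp3, was higher in every responder (156.0 ± 6.99 against 134.6 ± 8.996 CPM, log2 change 0.21 by edgeR, SE 0.05 and adjusted p = 0.0372). So was Adamts9, which cuts versican (97.7 ± 11.4 against 71.8 ± 9.37 CPM, log2 change 0.44 by edgeR, SE 0.10 and adjusted p = 0.033). Adamts14, which trims procollagen, was lower (50.5 ± 3.39 against 63.4 ± 8.57 CPM, log2 change -0.33 by edgeR, SE 0.08 and adjusted p = 0.0401).

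Of 17 genes for matrix substrates of these enzymes, 4 were called, all lower in responders and without overlap. They encode basement membrane and pericellular proteins. Col4a1 and Col4a2, the type IV collagen chains that gelatinases cut, were at 475.3 ± 52.6 and 227 ± 15.1 CPM in the 6 responders and 671.3 ± 13.8 and 296 ± 28.2 CPM in the 4 non-responders. Their log2 fold changes were -0.50 (edgeR SE 0.08 and adjusted p = 0.0207) and -0.38 (edgeR SE 0.07 and adjusted p = 0.0231). Col6a1, of type VI collagen, and Lamb1, a laminin chain, changed by -0.58 (edgeR SE 0.10 and adjusted p = 0.0221) and -0.39 (edgeR SE 0.08 and adjusted p = 0.0306) on the log2 scale. The fibrillar collagen genes Col1a1, Col1a2 and Col3a1, substrates of Mmp13 and Mmp14, had estimates of 0.02, -0.03 and -0.21 and were not called (edgeR adjusted p = 0.95, 0.895 and 0.365). The median log2 fold change of the list was -0.16.

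The remaining marker lists differed in how many of their genes were called. Skeletal muscle markers, led by Acta1 and Myh4, summed to 484.5 to 1313 CPM in responders and 353.4 to 475.3 CPM in non-responders, with 3 of 6 called higher. Inflammatory monocyte markers, led by Ccr2 and Plac8, summed to 111.8 to 166.9 against 59.8 to 107.8 CPM, with 1 of 3 tested called higher. Mast cell markers (led by Mcpt4 and Tpsb2) gave 1 call of 4, also higher, and T cell markers (Cd3g and Cd3e), adipocyte markers (Fabp4 and Cfd), pericyte and smooth muscle markers (Acta2 and Rgs5), endothelial markers (Pecam1 and Cdh5), keratinocyte markers (Krt10 and Krt5) and colon epithelium markers (Krt20 and Cdh1) gave 0 calls by edgeR, with 4 of 4, 5 of 5, 2 of 4, 0 of 6, 0 of 1 and 3 of 4 tested at an unadjusted p under 0.05. In that order DESeq2 called 3, 5, 1, 0, 0 and 1 of them and limma-voom 0. The T cell, adipocyte and pericyte and smooth muscle markers at an unadjusted p under 0.05 by edgeR were all higher in responders. Those of colon epithelium were all lower. Over all genes tested, 29.1% had such a p in either direction. The part of these cells in the values of the members was not tested.

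Relations across tumors were examined for 9 pairs of genes, chosen from known biochemistry, from position in the cluster or from cell type. The last ground holds for Mmp12 and the macrophage marker Adgre1, which is not a member. Mmp3 and Mmp10 rose and fell together over all 10 tumors, with a Pearson's r of 0.82 (permutation p = 0.00422, adjusted p = 0.038 over 9 pairs) and a Spearman's rho of 0.92 (permutation p = 0.00056, adjusted p = 0.00504). Among responders alone the values were 0.74 for r (p = 0.0944 by exact permutation) and 0.77 for rho (p = 0.103 by exact permutation), and with group means removed r over 10 tumors was 0.61. Leaving out responder 3 and non-responder 2, the tumors farthest from the median of Mmp3, r was 0.84. Reads split between these genes enter both values.

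**Figure D5:**
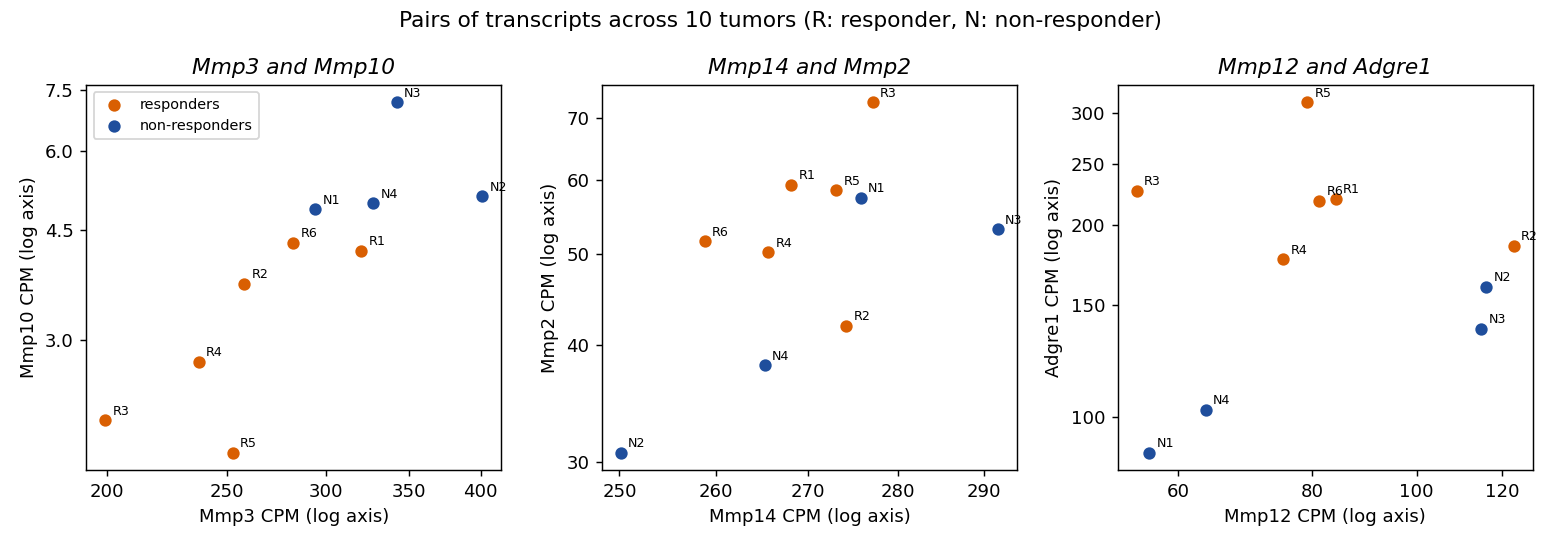
CPM of 3 pairs of genes on log axes in each responder (orange, R) and non-responder (blue, N). Mmp3 and Mmp10 lie along a line (r = 0.82), Mmp14 and Mmp2 loosely so within the narrow range of Mmp14 (r = 0.60), and Mmp12 shows no such relation with the macrophage marker Adgre1 (r = 0.18).

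The partners of proMMP2 activation were less tightly related. For Mmp14 and Mmp2 r was 0.60 (permutation p = 0.0699, adjusted p = 0.21) and rho 0.61 (permutation p = 0.0653, adjusted p = 0.241), with r at 0.32 within responders (exact permutation p = 0.533) and at 0.43 without non-responders 2 and 3, the tumors at the ends of the Mmp14 range. Group means removed, it was 0.71, and single tumors moved it from 0.29 without non-responder 2 to 0.72 without non-responder 3 (permutation p = 0.0397, not adjusted over pairs). For Mmp2 and Timp2 r was 0.62 (permutation p = 0.0494, adjusted p = 0.21) and rho 0.44 (permutation p = 0.204, adjusted p = 0.306), with r at 0.80 within responders (exact permutation p = 0.0639). Without non-responder 2 and responder 3, the lowest and highest tumors in Mmp2, r was 0.39. It was 0.51 without non-responder 2 alone and 0.54 without responder 3 alone. Leaving out both ends narrows the range, so the value of 0.39 cannot show that r rested on those tumors. For Mmp14 and Timp2 r was 0.15 (permutation p = 0.681, adjusted p = 0.681) and rho 0.12 (permutation p = 0.757, adjusted p = 0.852).

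The 5 other pairs did not pass either. Mmp9 and Timp1 had an r of 0.51 (permutation p = 0.14, adjusted p = 0.252), which fell to 0.06 with group means removed. Mmp3 and Mmp13, which lie in the same cluster, had an r of 0.53 (permutation p = 0.119, adjusted p = 0.252). It was 0.70 with group means removed, but 0.33 without non-responder 2 and 0.21 without responder 3 and non-responder 2. Without non-responder 1 it was 0.74 (permutation p = 0.025), a value not adjusted over pairs, and that of Mmp9 and Timp1 was 0.34. For Mmp3 and Timp1, Mmp14 and Mmp13, and Mmp12 and Adgre1, r was 0.36, -0.20 and 0.18 (permutation p = 0.303, 0.586 and 0.618, adjusted p = 0.454, 0.681 and 0.681). Without non-responder 2 r of Mmp3 and Timp1 was 0.61, and without non-responder 3 it was 0.22. The rho values were 0.54, 0.59, 0.49, -0.28 and 0.03 for these 5 pairs in turn (permutation p = 0.116, 0.0803, 0.156, 0.429 and 0.95, adjusted p = 0.26, 0.241, 0.28, 0.551 and 0.95).

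For 9 of the members the gene with the most similar profile over the 10 tumors was found by Pearson's r of log2 CPM among genes averaging at least 10 CPM. Each is the highest of many values over 10 points that share libraries, and serves as a description only. Mmp9 was closest to Ppp2r5b (r = 0.99), which encodes a regulatory subunit of the phosphatase PP2A, followed by the receptor tyrosine kinase gene Ephb4 (r = 0.96) and Trmt44 (r = 0.95). Mmp10 was closest to Inhbb (r = 0.96), which encodes an activin subunit and was itself called lower in responders (log2 fold change -0.75, edgeR adjusted p = 0.0245). Timp1 was closest to Pcdh7 (r = 0.97), a protocadherin gene also called lower (log2 fold change -0.62, edgeR adjusted p = 0.0472). The closest genes were Krit1 for Mmp3 (r = 0.95), Rora for Mmp12 (r = 0.97), Phf20l1 for Mmp13 (r = 0.96), Klf3 for Mmp14 (r = 0.93), Hmgn5 for Timp2 (r = 0.94) and Hk2 for Timp3 (r = 0.93). None of these was itself a member.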

How the data were processed

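RNA was measured in 10 tumors, grouped by the response in the labels. The authors reviewed reads with FastQC, estimated transcript abundance with Kallisto and summed it to genes with tximport on mm10; the annotation release, scaling option and strand setting are not given in the sources used here. The deposited values are expected counts (estimated, fractional for 45.1%) for 36009 genes. No library was a copy of another (over 45 pairs, chi-square per degree of freedom 10.7 to 119.4).

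Counts were rounded and fitted with edgeR 4.0.16 (R 4.3.3): filterByExpr defaults (minimum count 10, minimum total 15), TMM and the two-sided quasi-likelihood test with Benjamini-Hochberg adjustment over 16041 genes, threshold 0.05. The fit was tested on simulated data. CPM used TMM-scaled totals, log2 CPM a prior count of 2, and SE is the log2 fold change over the square root of F. The p-values of the fits set the difference between groups against the spread between tumors. Correlations used 100000 permutations, exact within responders. Coordinates and transcript words came from GENCODE M21 (GRCm38), which matched 35912 identifiers; promoters came from RefSeq. DESeq2 1.42.0, limma-voom 3.58.1, RLE scaling, no filter, thinned libraries, another prior count (0.5), left-out tumors and a summed Mmp3 and Mmp10 row (added after seeing the data) were the alternatives. Named genes were all members, the called genes of each pathway list or else its 2 smallest p, the 2 most abundant markers, and the nearest genes (that of Mmp2 is not reported here); AP-1 genes, Plg, Mrc1, Krt14, Dsg3, fibrillar collagens and genes too low to test were added after seeing values. Members, lists and tests were chosen with earlier results of these data known.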

Additional observations from a re-analysis of the deposited data

Results flagged for a closer look

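Of 20 groups of values examined (10 members in each group of tumors), 1 held an outlying tumor, where chance gives about 1. Mmp10 in non-responder 3 was at 7.168 CPM, with the other non-responders at 4.85 to 5.08 CPM, a gap of 0.90 of the range of the group. Without that tumor the log2 fold change of Mmp10 was -0.64 (edgeR adjusted p = 0.13).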

How the results depend on the processing

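Under DESeq2, 2580 genes and 4 members (Mmp3, Mmp9, Mmp10 and Timp1, all lower in responders) were called, against 1293 and 1 by edgeR. Under limma-voom 0 members passed, with 4 at an unadjusted p under 0.05 and Mmp9 at an adjusted p of 0.0515. With thinned libraries 2 members passed (Mmp9 and Mmp10) and 1 member did not overlap between groups (Mmp10). RLE scaling, no filter and a summed Mmp3 and Mmp10 row left Mmp9 as the only member called. Leaving out single tumors gave 0 to 1897 called genes (0 without non-responder 4, with 4106 at an unadjusted p under 0.05, 16 without non-responder 1 and 17 without responder 3), 0 to 2 called members and 2 to 3 members without overlap. Leaving out a tumor cannot create an overlap, so the last count could only stay or rise. In these fits Mmp3 was called without responder 1 (edgeR adjusted p = 0.0478) and Timp1 without non-responder 2. Log2 fold changes that changed sign ran from -0.23 to 0.0875 for Mmp12, -0.33 to 0.0819 for Mmp13, -0.0410 to 0.0309 for Mmp14, -0.00016 to 0.10 for Timp2 and -0.0813 to 0.22 for Timp3, and r from -0.16 to 0.63 for Mmp14 and Timp2, -0.65 to 0.18 for Mmp14 and Mmp13 and -0.13 to 0.35 for Mmp12 and Adgre1. The causes were not tested. The relation of Mmp3 and Mmp10 kept its sign and an unadjusted p under 0.05 in all 12 alternatives, with r from 0.76 to 0.87 in the 10 fits without a tumor. No paired analysis was possible because the labels give no replicate numbers shared between the groups.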
